A study of Mus musculus with 144 samples.

Results

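The tubulin isotypes Tuba1a, Tuba1b, Tuba1c, Tuba4a, Tubb5, Tubb2a, Tubb4b and Tubb6 and the tubulin-binding protein gene Stmn1 were followed in single retinal microglia after injury of the optic nerve. These 9 genes were taken by symbol from the 55364 genes of the deposited table. Each symbol had 1 entry. The cells were single cells sorted from retinas of Iba1-EGFP mice, 16 weeks old. All groups carry this reporter, which marks microglia and other macrophages by the promoter of Iba1, a gene of that lineage. The untreated group held 54 cells, the group at day 2 after optic nerve crush 54 cells, and the group at day 4 after crush 36 cells. Each of 3 plates held cells of all 3 groups, in separate rows, so row position and time point cannot be told apart. The labels name no animals, so each time point counted as 1 sample of cells, no test across cells was made, and every SD after ± is a spread between cells.

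Microtubules are hollow polymers of alpha- and beta-tubulin dimers that grow and shrink at their ends. Mammals encode several alpha and several beta isotypes that copolymerise, and the isotypes differ most in their C-terminal tails, where many tubulin modifications are placed. Stathmin, the product of Stmn1, binds free tubulin dimers and promotes microtubule disassembly, and it is known both as a growth-associated and as a proliferation-associated protein. Microglia carry fine branched processes that depend on microtubules, and they divide after neural injury, so tubulin transcripts in these cells can be set beside Mki67, the marker gene of cycling cells.

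The alpha members are close in sequence. Over the whole coding sequence Tuba1a and Tuba1b were 98.3% identical, Tuba1b and Tuba1c 97.9%, and Tuba1b and Tuba4a 85.2%. The identities are from global alignments of GENCODE M21 coding sequences on build GRCm38.

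The beta members were less alike, and the end of the coding sequence, which encodes the variable tail, is shown for 3 of them. The sequences are the last 60 coding bases, 5′ to 3′ on the coding strand from the same transcripts, stop codon included. Capitals mark bases that differ from Tubb5, or that it lacks, in a global alignment of the coding sequences. Tubb5 lies on the minus strand at chr17:35834982-35835041, Tubb2a on the minus strand at chr13:34074468-34074527 and Tubb4b on the minus strand at chr2:25222308-25222367.
Tubb5: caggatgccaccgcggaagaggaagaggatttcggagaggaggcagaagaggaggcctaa
Tubb2a: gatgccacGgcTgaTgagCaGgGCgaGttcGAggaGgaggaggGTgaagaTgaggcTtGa
Tubb4b: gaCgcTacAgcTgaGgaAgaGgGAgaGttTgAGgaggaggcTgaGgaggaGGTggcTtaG
Tubb2a had 16 capitals and Tubb4b 20. Coding identity among the 4 beta members lay between 80.3% and 84.6%.

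Shared sequence and values that are not whole reads were counted for each member. Of the 50-base words in the transcripts of Tuba1a, 75.5% also occurred in transcripts of another gene, against 75.1% for Tuba1b, 52.7% for Tuba1c, 49.6% for Tubb2a, 41.3% for Tubb4b, 35.4% for Tuba4a, 18.9% for Stmn1, 0.0892% for Tubb5 and 0% for Tubb6. The partners were mostly the other alpha members and processed copies for the Tuba1 genes, Tubb2b for Tubb2a, pseudogenes for Tubb4b and the overlapping gene Stk16 for Tuba4a. Values above 0 that were not whole reads, within 0.01 read, made up 97.2% for Tuba1a, 98.6% for Tuba1b and 97.9% for Tuba1c. They made up 72.9% for Stmn1, 70.5% for Tubb2a, 64.7% for Tubb4b, 50% for Tuba4a, 25% for Tubb5 and 5.83% for Tubb6. How reads that match several genes were split is not given in the sources used here, so the values of the single Tuba1 genes, and of Tubb2a, Tubb4b, Tuba4a and Stmn1, are less certain than those of Tubb5 and Tubb6.

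Levels are given in FPKM, fragments per kilobase of exon and 1e+06 (M) assigned reads, which is per length and lets genes be set side by side. Differences are differences of the mean over cells of log2(FPKM + 1), which understate the change of low genes. A gene was counted as measured at 1 FPKM or more in at least 10% of cells. This was so for 8679 genes and for 8 of the 9 members, Tuba4a being the one that missed it. Mki67 was at 1 FPKM or more in 13 cells and also missed it, and both are described by their values. A member was called higher or lower when the pooled difference was at least 1 in size and no plate of the 3 went the other way.

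Cells held a median of 4.93, 5.32 and 5.80 M assigned reads in the untreated, day 2 and day 4 groups, from 0.190 to 18.9 M over all cells. The median number of genes at 1 FPKM or more was 2792, 3469 and 3957.5, not corrected for depth, and the part of this shift in the differences below was not tested beyond a covariate for it. The median difference of all measured genes from untreated cells was 0.21 at day 2 and 0.45 at day 4. At least 3 of 10 microglia markers reached 20 FPKM in each of the 54, 54 and 36 cells. Of the neuronal markers, which include the neuronal tubulin gene Tubb3 and Stmn2, at least 3 of 10 reached it in 1 untreated cell and in no cell after crush. Their summed level ranged from 0 to 1217 FPKM in untreated cells, from 0 to 67.9 at day 2 and from 0 to 74.3 at day 4. At least 3 of 8 border macrophage markers reached 20 FPKM in 5, 8 and 2 cells of the 3 groups, and 3 or more monocyte markers did so in 0, 2 and 0 cells. The summed level of 8 Müller glia markers had a median of 126 FPKM (0.0535 to 1942) in untreated cells, 80.8 (0.726 to 1509) at day 2 and 50.7 (0.127 to 1513) at day 4, and 3 or more of them reached 20 FPKM in 1, 0 and 0 cells. No cell was left out for its markers, so the groups can hold border macrophages and monocytes beside microglia. The part of these other markers in the differences of the members was not tested. Tubb3 itself did not pass 3.85 FPKM in any cell, and Stmn2 did not pass 10.2 FPKM.

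At day 4 after crush most of these genes stood higher than in untreated cells. Of the 9 members 6 were called higher and 0 lower, namely Tuba1a, Tuba1b, Tuba1c, Tubb5, Tubb2a and Stmn1. Of all measured genes 18.9% were called higher in this comparison and 0.346% lower. The median difference of the 9 members was 1.63, against 0.45 for all measured genes. The measured genes were not matched to the members in level. The Tuba1 genes share sequence, so their calls are not separate ones. With detected genes as covariate the median of the members was smaller, as given in the last section. At day 2 the members called higher were Tuba1b, Tuba1c, Tubb5 and Stmn1, 4 of 9, with 0 lower, where 3.89% of measured genes were called higher and 0.0576% lower. Their median difference was 0.95, against 0.21. The comparisons of day 2 and day 4 use the same untreated cells. From day 2 to day 4 only Tubb5 of the 9 was called higher and 0 lower, with 9.57% of measured genes higher and 0.864% lower, and the median of the members was 0.69 against 0.25. No member was called lower in any of the 3 comparisons.

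**Figure D1:**
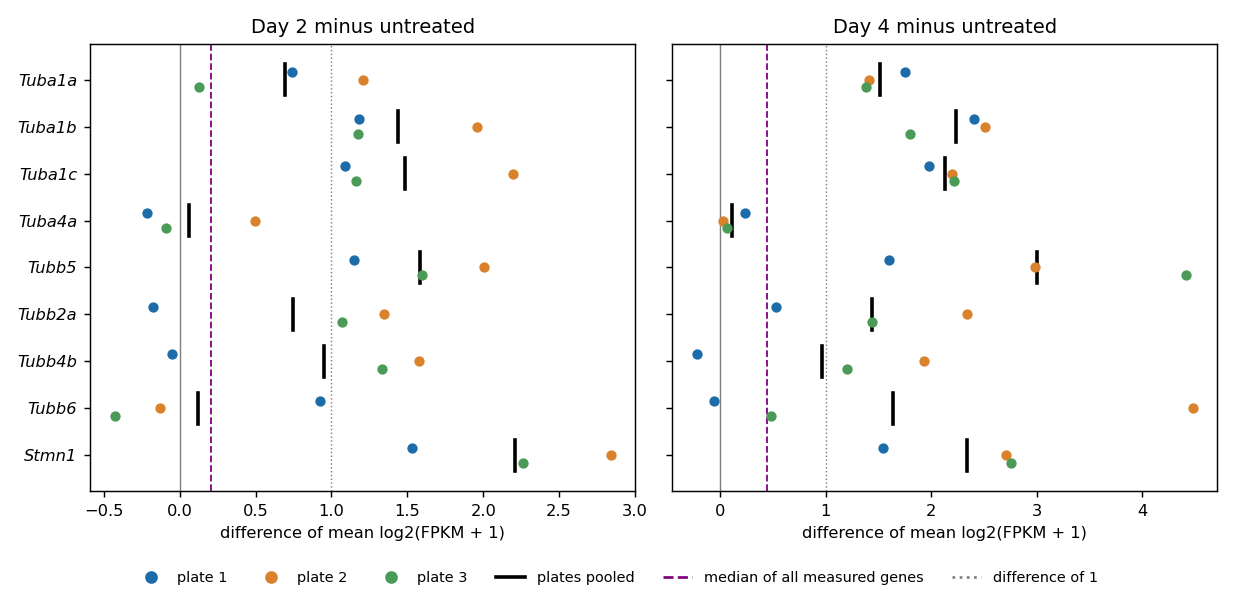
Difference of mean log2(FPKM + 1) from untreated cells for each member at day 2 (left) and day 4 (right); the horizontal scales of the panels differ. Points are the 3 plates, black bars the pooled difference, the dashed line the median of all 8679 measured genes and the dotted line a difference of 1. Tubb5 at day 4 ran from 1.6 in plate 1 to 4.41 in plate 3, and Tubb6 at day 4 stood at 4.48 in plate 2 against -0.06 and 0.48 in plates 1 and 3.

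Tuba1a, Tuba1b and Tuba1c were at 1 FPKM or more in more cells than any other member. Tuba1b, a broadly expressed isotype of most tissues, reached 20 FPKM in 36 of 54 untreated, 44 of 54 day 2 and 33 of 36 day 4 cells. Its level in untreated cells had a lowest value of 1.88, a median of 100.4 and a highest value of 844 FPKM. At day 2 these values were 2.07, 248 and 3220.2 FPKM, and at day 4 they were 0.639, 477 and 1821 FPKM. The groups overlapped, and the highest untreated cell lay below the highest cells after crush. Mean log2(FPKM + 1) was 6.0 ± 2.57 (SD over 54 cells), 7.43 ± 2.66 (54 cells) and 8.23 ± 2.39 (36 cells). The difference from untreated cells was 1.44 at day 2 and 2.24 at day 4, with 2.40, 2.5 and 1.80 in plates 1, 2 and 3 at day 4.

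Tuba1c, a further broadly expressed alpha isotype, followed the same order. Its lowest, median and highest values were 0.297, 35.6 and 330.3 FPKM in untreated cells, 0.643, 83.4 and 1804 FPKM at day 2, and 0.306, 137 and 645 FPKM at day 4. The ranges again overlapped, with the highest cells at day 2. Mean log2(FPKM + 1) was 4.55 ± 2.32, 6.04 ± 2.60 and 6.68 ± 2.16. Its difference of 2.13 at day 4 was the most even over plates of the 6 called ones, at 1.98, 2.19 and 2.22. At day 2 it was 1.48.

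Tuba1a, the main alpha isotype of developing neurons, started high in a part of the untreated cells. It ran from 0.856 over a median of 28.1 to 1034 FPKM in untreated cells, from 0.674 over 70.4 to 917 FPKM at day 2 and from 0.258 over 147 to 1161 FPKM at day 4. The highest values of the 3 groups were therefore close, and 30 of 54 untreated cells were already at 20 FPKM or more, against 39 of 54 and 30 of 36. In mean log2(FPKM + 1) Tuba1a stood at 5.16 ± 2.97, 5.86 ± 2.57 and 6.68 ± 2.39. The difference was 0.69 at day 2, which was not called, and 1.51 at day 4, with 1.75, 1.41 and 1.38 in the plates. On the log2 scale of the mean FPKM, which follows the highest cells, the day 4 difference of Tuba1a was 0.53, with detected genes as covariate it was 0.72, and under neither was it called.

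Tuba4a was close to absent. It was at 1 FPKM or more in 3 of 54, 2 of 54 and 3 of 36 cells, and at 20 FPKM or more in 0, 2 and 1. By the limit of 3 counts, 0 of 54 untreated cells leaves room for a share of 5.56%, and the exact 95% interval ends at 6.60%, both for counting error alone. Its median was 0 FPKM in untreated cells and at day 2 and 0.00718 FPKM at day 4. Its difference at day 4 was 0.11, and at day 2 it was 0.06.

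Because the Tuba1 genes share sequence, the family was also summed in reads. The 4 alpha members together took a mean of 791 reads per 1e+06 without treatment, 1780 at day 2 and 2001 at day 4. On the log2 scale their sum differed from untreated cells by 1.99 at day 4, with 2.09, 1.96 and 1.93 in plates 1, 2 and 3. Adding 9 other genes and copies that share at least 20% of their words, which held 27.5% of the family's reads, gave 1.94. The alpha-tubulin difference at day 4 was thus nearly as large with the reads of those copies included.

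**Figure D2:**
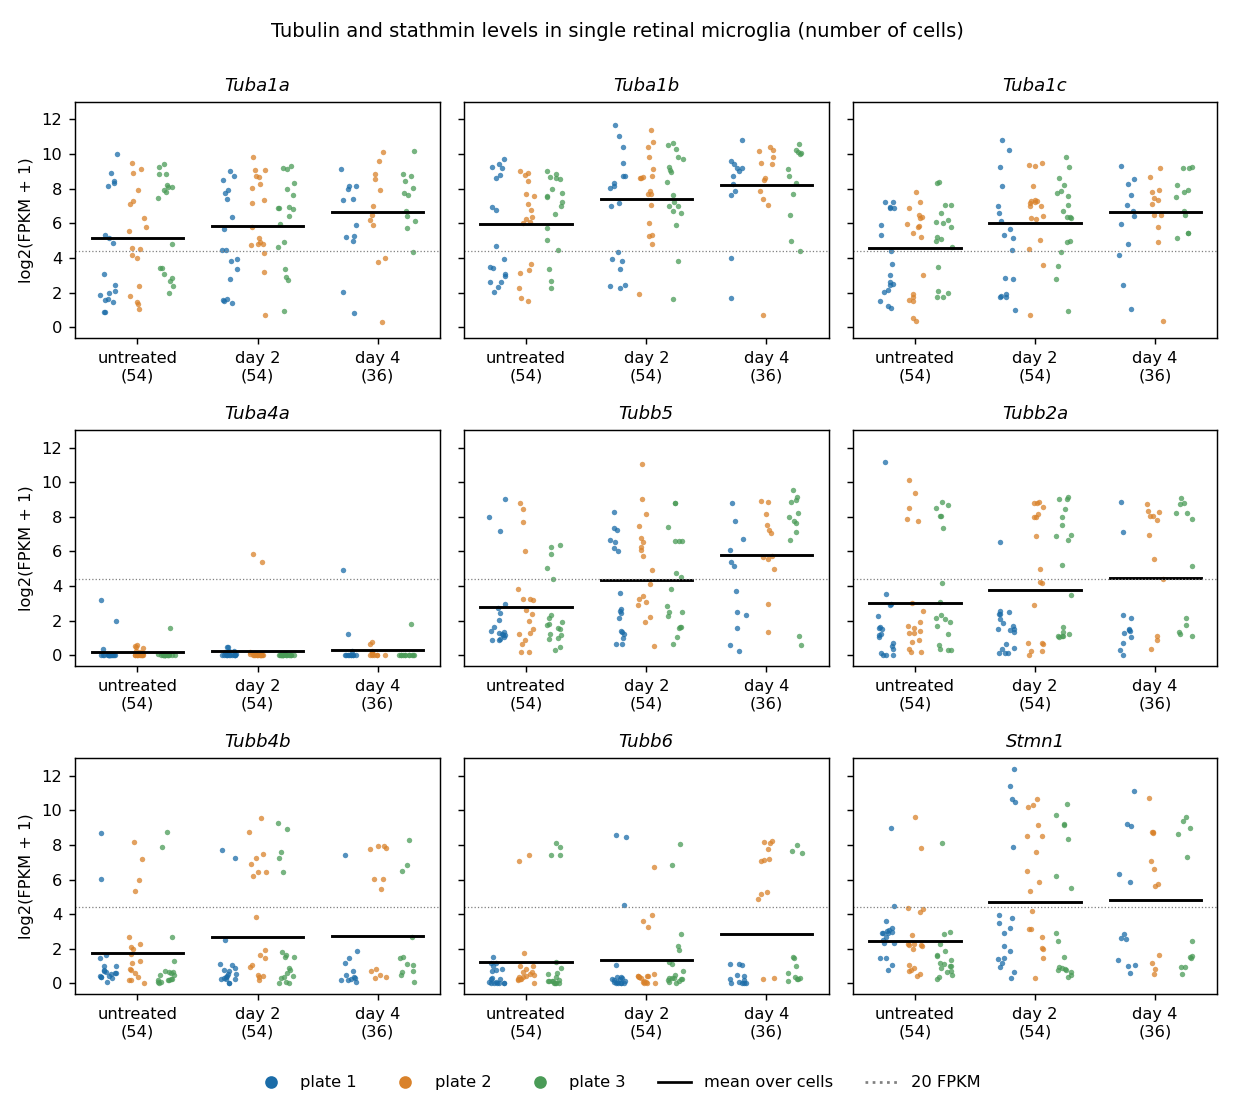
log2(FPKM + 1) of each member in every cell, by time point and coloured by plate; black bars are means over cells and the dotted line is 20 FPKM. Tubb5 moves from 11 of 54 untreated cells at or above the line to 25 of 54 at day 2 and 26 of 36 at day 4, and 10 of the 13 day 4 cells above it for Tubb6 are from plate 2.

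Tubb5, a broadly expressed beta isotype, had the largest difference of the 9 members at day 4. In untreated cells it ran from 0.129 over a median of 2.40 to 524 FPKM, at day 2 from 0.472 over 12.2 to 2139 FPKM and at day 4 from 0.215 over 103 to 762 FPKM. Low and high cells were present in every group, so the ranges overlapped, but the median at day 4 was in the range that few untreated cells reached. It was at 20 FPKM or more in 20.4% of untreated cells (11 of 54, exact Clopper-Pearson 95% interval 10.6 to 33.5), 46.3% at day 2 (25 of 54, 32.6 to 60.4) and 72.2% at day 4 (26 of 36, 54.8 to 85.8). These intervals cover counting error only. Few cells lay near the threshold, with 3, 6 and 3 cells between 10 and 40 FPKM. At the lowest depth of any cell 20 FPKM corresponds to 12.6 reads of Tubb5, and at the median depth to 354.

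Mean log2(FPKM + 1) of Tubb5 was 2.80 ± 2.45 without treatment, 4.38 ± 2.73 at day 2 and 5.80 ± 2.88 at day 4. The difference of 3.00 at day 4 was 1.6, 2.98 and 4.41 in plates 1, 2 and 3. That of 1.58 at day 2 was 1.15, 2.01 and 1.59, and with a pseudocount of 10 it was 0.94 and no longer called. Between day 2 and day 4 the difference was 1.42, but 0.46, 0.98 and 2.82 in the plates. Without plate 3 it was 0.72 and not called.

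The upstream sequence is shown for Tubb5 and Tubb4b, the 2 of the 3 beta members searched that held CCAAT in this window, a choice made after the matches were seen. They are the 250 bases upstream of the start site in RefSeq on build GRCm38.p6, 5′ to 3′ on the gene's strand. Tubb5 is on the minus strand at chr17:35838302-35838551 and Tubb4b on the minus strand at chr2:25224703-25224952. Capitals mark matches, on either strand, of 3 motifs that were searched for. They are CCAAT, the core of the binding site of the factor NF-Y. They are further TTTGAA, the core of an element of many cell cycle promoters, and the TATA box written as TATAAA. No match overlapped another.
Tubb5: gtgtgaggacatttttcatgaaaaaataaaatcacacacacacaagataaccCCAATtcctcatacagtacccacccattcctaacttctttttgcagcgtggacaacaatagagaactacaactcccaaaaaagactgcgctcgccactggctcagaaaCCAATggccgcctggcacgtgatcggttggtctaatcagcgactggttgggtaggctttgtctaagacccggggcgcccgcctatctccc
Tubb4b: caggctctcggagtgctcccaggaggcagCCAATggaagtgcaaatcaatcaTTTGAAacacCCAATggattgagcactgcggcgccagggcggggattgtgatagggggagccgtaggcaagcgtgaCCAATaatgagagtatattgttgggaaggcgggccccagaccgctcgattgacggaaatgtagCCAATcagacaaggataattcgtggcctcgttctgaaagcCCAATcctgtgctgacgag
Tubb4b held 5 matches of the NF-Y core and 1 of the cell cycle element, and Tubb5 held 2 of the NF-Y core. The window of the same length at Mki67 held 3 and 2. Neither Tubb5 nor Tubb4b held the TATA motif, of which Tubb2a held 1, and Tuba1a and Tuba1c held 1 NF-Y core each. RefSeq promoters of 7 of the 9 members were searched. Of 32851 mouse promoters of this length in RefSeq, 33.8% held the NF-Y core, 16.0% the cell cycle element and 12.4% the TATA motif. A match is a description of letters only.

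Tubb2a, a beta isotype abundant in neurons, was split by plate. Its lowest value was 0 FPKM in each group, its medians were 2.18, 4.25 and 12.1 FPKM, and its highest values 2310.5, 563 and 547 FPKM. The single highest cell of all was thus untreated, and that cell alone held 33.3% of the summed Tubb2a of its group. The means of log2(FPKM + 1) were 3.03 ± 3.23, 3.77 ± 3.27 and 4.46 ± 3.43. The difference at day 4 was 1.43, with 0.53, 2.34 and 1.44 in plates 1, 2 and 3. This call was the least firm of the 6. The value was 0.98 without plate 2, 0.99 relative to the median of all genes, 0.90 with a pseudocount of 10, 0.29 with detected genes as covariate and 0.09 on the log2 scale of the mean FPKM, where it was -1.32 in plate 1. In plate 1 only 1 of 18 untreated, 1 of 18 day 2 and 2 of 12 day 4 cells were at 20 FPKM or more, against 5, 9 and 9 in plate 2.

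Tubb4b, a widely expressed beta isotype that is abundant in cilia, was on or off. Its medians were 0.590, 0.983 and 1.12 FPKM, whereas the highest cells held 419, 749 and 306 FPKM, and the lowest were at 0, 0 and 0.0511 FPKM. At 20 FPKM or more were 8 of 54 untreated, 15 of 54 day 2 and 11 of 36 day 4 cells, with 1, 1 and 0 cells between 10 and 40 FPKM. On the log2(FPKM + 1) scale its means were 1.74 ± 2.45, 2.7 ± 3.16 and 2.71 ± 3.04. Its differences of 0.95 at day 2 and 0.97 at day 4 were not called. In plate 1 they were -0.05 and -0.22, and without that plate they were 1.46 and 1.56 and called.

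Tubb6, a beta isotype that is minor in most tissues, was likewise on or off and was decided by 1 plate. Its medians were 0.288, 0.252 and 1.07 FPKM and its highest values 271, 374 and 297 FPKM, with the lowest cells at 0 in every group. At day 4 it was at 20 FPKM or more in 0 of 12 cells of plate 1, 10 of 12 of plate 2 and 3 of 12 of plate 3. Its median in the day 4 cells of plate 2 was 137 FPKM, against 0.18 and 0.77 in plates 1 and 3. Its means of log2(FPKM + 1) were 1.24 ± 2.29, 1.36 ± 2.32 and 2.87 ± 3.31. The difference of 1.63 at day 4 was 4.48 in plate 2, and without that plate it was 0.21, and it was not called. Without plate 1 it was 2.48 and called. Cells of plate 2 at day 4 had a median of 8.71 M reads and 5057.5 detected genes, the highest of any plate and time point, and the part of that depth in the Tubb6 value was not tested.

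The 4 beta members together took a mean of 470 reads per 1e+06 without treatment, 743 at day 2 and 1062 at day 4. The log2 difference of their sum was 2.37 at day 4, with 0.80, 3.23 and 3.07 in plates 1, 2 and 3, and it was also 2.37 with 4 further genes and copies of shared sequence.

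Stmn1 was called higher as early as day 2. Its median went from 3.66 FPKM in untreated cells to 8.06 at day 2 and 27.7 at day 4. Its lowest values were 0.184, 0.25 and 0.446 FPKM and its highest 776, 5398 and 2207 FPKM. Many cells of each group stayed below 10 FPKM, so the groups overlapped, and the change lay in how many cells were high. At 20 FPKM or more were 9.26% of untreated cells (5 of 54, exact 95% interval 3.08 to 20.3), 40.7% at day 2 (22 of 54, 27.6 to 55.0) and 50% at day 4 (18 of 36, 32.9 to 67.1).

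Mean log2(FPKM + 1) of Stmn1 was 2.48 ± 2.08, 4.69 ± 3.78 and 4.81 ± 3.66. Its difference from untreated cells was 2.21 at day 2, the largest of the 9 members there, with 1.53, 2.84 and 2.26 in plates 1, 2 and 3. At day 4 it was 2.34, with 1.54, 2.71 and 2.76. Day 4 stood 0.13 above day 2, with 0.01, -0.13 and 0.50 in the plates, while on the log2 scale of the mean FPKM it stood 0.58 below (a difference of -0.58). The mean FPKM was 37, 388 and 259, and 5 cells held 60.9% of the summed level at day 2. The other stathmin genes Stmn2, Stmn3 and Stmn4 were not measured, and their medians were 0 FPKM in every group.

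Isotype use was compared as each gene's share of the summed FPKM of its family. Family, alpha-tubulin and beta-tubulin here mean the 4 alpha or the 4 beta members only, without other tubulins such as Tubb2b. In the alpha family Tuba1b held the largest share at each time point, and its lead over Tuba1a was larger after crush. In untreated cells of plate 3 Tuba1a stood above it, at 43.6% against 40.2%. Tuba1a held 40.1% without treatment, 19.1% at day 2 and 23.3% at day 4, while Tuba1b held 45.4%, 57.3% and 57.1%. Tuba1c held 14.5%, 23.3% and 19.4%, and Tuba4a 0.0710%, 0.203% and 0.0968%. The share of Tuba1a at day 4 was lower than in untreated cells by a difference of -16.7, -14.5 and -19.4 percentage points in plates 1, 2 and 3, and at day 2 by -21.8, -18.0 and -22.7. The share of Tuba1b differed by 8.28, 13.4 and 14 percentage points at day 4, and in plate 1 its sign turned with single cells, as given below. With coding sequences of Tuba1a and Tuba1b that are 98.3% identical, these shares rest on how the authors' counting split shared reads.

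Counted per cell, the same order was seen. Among cells with at least 20 FPKM of alpha-tubulin in all, Tuba1a was the leading alpha gene in 15 of 39 untreated, 8 of 48 day 2 and 6 of 34 day 4 cells. Tuba1b led in 22, 38 and 26. The mean share of Tuba1a per cell was 35.9% ± 30.1, 23.9% ± 23.7 and 24.3% ± 22, so cells within a group differed by more than the groups did.

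In the summed beta family the share of Tubb2a was lower after crush and that of Tubb5 higher, and these values moved with single cells. Tubb2a held 57.1% of the summed beta FPKM without treatment, 33.6% at day 2 and 32.1% at day 4, and Tubb5 held 19.4%, 36.1% and 41.4%. Tubb4b held 14%, 22.6% and 11.8%, and Tubb6 9.55%, 7.67% and 14.7%. The share of Tubb5 at day 4 differed from untreated cells by 28.3, 4.57 and 42.6 percentage points in plates 1, 2 and 3, and that of Tubb2a by -26.1, -26.6 and -19.4. When the untreated cell of plate 1 with 2310.5 FPKM of Tubb2a was left out, Tubb2a held 47% without treatment, and its change was -14.9 percentage points at day 4 and -13.4 at day 2. In plate 1 the sign of both genes then turned at day 4, to 33.2 percentage points for Tubb2a and -10.9 for Tubb5, and at day 2, to 2.98 and -20.0. When the day 2 cell of plate 2 with 2139 FPKM of Tubb5 was left out, Tubb5 held 26.9% at day 2, 7.45 percentage points above untreated cells in place of 16.7, with -0.44 in plate 2. For Tuba1a, Tuba1b and Tuba1c, leaving out the highest cell of any alpha gene in any group moved no pooled change by over 1.5 times. In plate 1 the sign of Tuba1b turned with single cells. Without the untreated cell of plate 1 with 1034 FPKM of Tuba1a, its change there was -0.99 percentage points at day 4 and -3.45 at day 2. The Tuba1a change in plate 1 was then -7.03 in place of -16.7 at day 4. Without the day 2 cell of plate 1 with 3220.2 FPKM of Tuba1b, the Tuba1b change there was -1.33 at day 2. Per cell, among those with at least 20 FPKM of beta-tubulin in all, the mean share of Tubb2a was 38.3% ± 39.8, 38.2% ± 40.6 and 28.2% ± 28.3, and that of Tubb5 36.1% ± 43.2, 35.2% ± 36.4 and 50.3% ± 35.7. Counted this way the day 2 shares were close to the untreated ones, and the day 4 changes were -10.2 percentage points for Tubb2a and 14.2 for Tubb5, smaller than the spread between cells. Without plate 3 the pooled change of Tubb5 was 9.27 percentage points, and without plate 2 it was 34.5.

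In 13 of 24 untreated cells with at least 20 FPKM of the 4 beta members in all, 1 member held at least 90% of that sum. Tubb2b is not part of the sum. It was at 20 FPKM or more in 9 of 54 untreated, 11 of 54 day 2 and 14 of 36 day 4 cells. Among cells with at least 20 FPKM of beta-tubulin in all, the leading beta gene had a median share of 93.1% over 24 untreated, 80.6% over 40 day 2 and 60.3% over 29 day 4 cells. It held at least 90% in 13, 15 and 10 of them. The median at the 3 time points was 99.6%, 96.8% and 96.5% in plate 1, 93.1%, 77.9% and 53.9% in plate 2 and 88.3%, 74.8% and 79.8% in plate 3, and in plate 3 day 4 stood above day 2. The number of detected genes was also higher at day 4, as given above, and its part in this was not tested. The leading alpha gene had medians of 68.3%, 64.0% and 63.6%. All 4 beta members reached 20 FPKM in the same cell in 0 of 54 untreated, 0 of 54 day 2 and 7 of 36 day 4 cells, and just 3 of them did in 5, 5 and 6 cells.

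**Figure D3:**
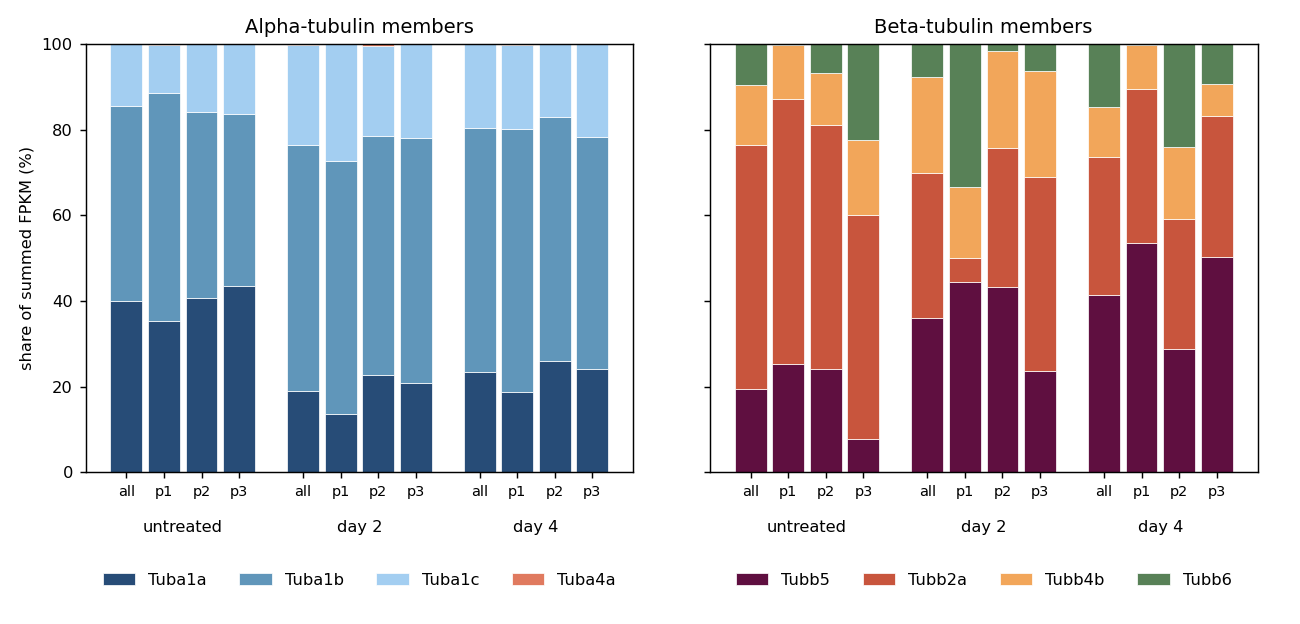
Share of each isotype in the summed FPKM of the 4 alpha members (left) and the 4 beta members (right), in percent, for all cells of a time point and for plates 1 to 3 (p1 to p3). Tuba1a falls from 40.1% in all untreated cells to 19.1% at day 2, and Tubb5 goes from 19.4% to 41.4% at day 4 while the beta bars differ between plates.

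The per-cell relation to Mki67 rested on few cells. Mki67, which encodes a protein of the surface of mitotic chromosomes, was at 20 FPKM or more in 0 of 54 untreated, 2 of 54 day 2 and 5 of 36 day 4 cells. The lowest of these 7 cells was at 27.3 FPKM and the highest of the others at 15.5 FPKM, and 46 cells were at 0. The same limits hold for this 0 of 54, 5.56% and 6.60%. The high cells of day 4 came from all 3 plates, with 1 in plate 1, 2 in plate 2 and 2 in plate 3, and the last pair sat in neighbouring wells of the same column, at 74.6 and 78.9 FPKM, with no other well of that column at 1 FPKM.

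Stmn1 was high in every Mki67-high cell. In the 5 of day 4 it was at 553, 414, 435, 508 and 676 FPKM, and in the 2 of day 2 at 1625 and 193 FPKM. The other 31 cells of day 4 ran from 0.446 over a median of 5.04 to 2207 FPKM, so the high cells lay inside the range of the others but all above their median. Tubb5 in the 5 cells of day 4 was at 213, 461, 288, 573 and 464 FPKM, and in the 2 of day 2 at 311 and 6.44 FPKM. The other 31 cells of day 4 ran from 0.215 over 51.8 to 762 FPKM. At 20 FPKM or more at day 4 were 5 of 5 Mki67-high and 13 of 31 other cells for Stmn1, 5 of 5 and 21 of 31 for Tubb5, 4 of 5 and 7 of 31 for Tubb4b, 4 of 5 and 14 of 31 for Tubb2a, and 3 of 5 and 10 of 31 for Tubb6.

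The 3 Tuba1 genes were also high in those cells at day 4, whereas Tuba4a reached 20 FPKM in 0 of the 5. Tuba1c had a lowest value of 413 and a median of 587 FPKM in the 5 Mki67-high cells of day 4, against a median of 105 and a highest value of 613 FPKM in the other 31. Tuba1b had medians of 1196 and 395 FPKM, and Tuba1a 455 and 88.9 FPKM. The 5 cells had a median of 7067 detected genes, from 2789 to 7872, and the other 31 a median of 3804, and the part of this difference in the levels of the members was not tested. With 5 cells the comparison is a description.

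**Figure D4:**
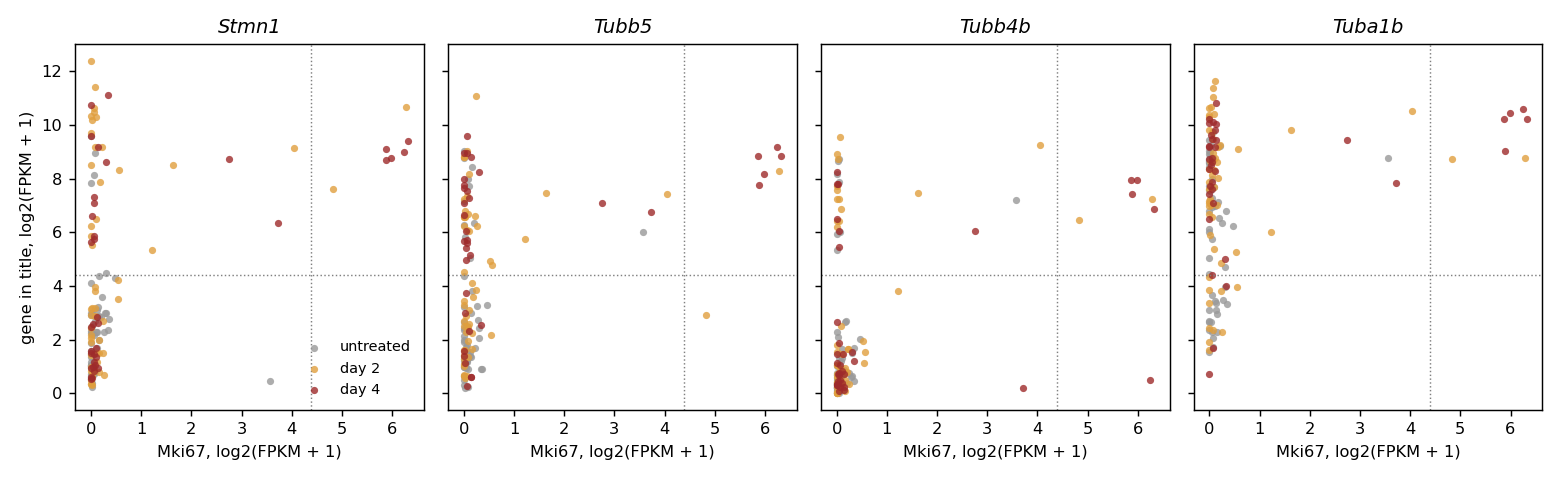
Stmn1, Tubb5, Tubb4b and Tuba1b against Mki67 in each cell, both axes log2(FPKM + 1), coloured by time point; dotted lines mark 20 FPKM. The 7 cells right of the vertical line are all above the horizontal line for Stmn1 and Tuba1b, 6 of 7 are for Tubb5 and 6 of 7 for Tubb4b.

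High Mki67 was limited to 7 cells, so most cells with high Stmn1 or Tubb5 had to be without it. Of 45 cells with Stmn1 at 20 FPKM or more, 38 were below 20 FPKM of Mki67, the fewest that 7 Mki67-high cells allow, and of 62 such cells for Tubb5, 56 were. Both genes were at 20 FPKM or more in 33 cells, 73.3% of the Stmn1-high and 53.2% of the Tubb5-high cells. Left without the 7 Mki67-high cells, the differences from untreated cells at day 4 were 1.66 for Stmn1 and 2.56 for Tubb5, 1.93 for Tuba1b and 1.74 for Tuba1c, and at day 2 they were 2.04 for Stmn1 and 1.54 for Tubb5, all of them still called. For Tubb2a the difference at day 4 was then 1.12 with -0.07 in plate 1, and it was no longer called. Day 4 then stood below day 2 for Stmn1, at -0.38. Leaving these cells out did not take out all cells high in proliferation genes. The mean log2(FPKM + 1) of 26 measured proliferation genes was 1.26 and 1.73 in the Mki67-high cells of day 2. It reached 4.62 in the other cells of day 2. At day 4 it ran from 2.57 to 5.75 in the Mki67-high cells and reached 5.15 in the others.

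Across all cells of the 3 groups (54, 54 and 36), after the mean of each time point and plate was subtracted, the Spearman correlation with Mki67 was 0.32 for Stmn1, 0.22 for Tubb4b, 0.17 for Tubb5, 0.16 for Tuba4a, 0.13 for Tuba1c, 0.11 for Tubb6, 0.09 for Tuba1b, 0.08 for Tuba1a and 0.03 for Tubb2a. Over all measured genes the median was 0.09 and the 95th percentile 0.32, and Stmn1 had the highest value of the members. The subtraction did not take the groups fully out of the ranks of Mki67. Its mean log2(FPKM + 1) was 0.04 in untreated cells of plate 3 and 1.25 in day 4 cells of plate 2. Its medians there were 0.00587 and 0.0399 FPKM, so most cells of groups with Mki67-high cells fell to low ranks. These correlations therefore hold a part of the difference between groups. As Pearson's r, also a description, Tubb4b stood at 0.36 and Stmn1 at 0.35. The genes of a cell share its library, depth and plate, and Mki67 had a Spearman correlation of 0.25 with the number of detected genes. With detected genes regressed out, the correlation with Mki67 was 0.31 for Stmn1, 0.27 for Tubb4b, 0.19 for Tubb6 and 0.12 for Tubb5. For Tuba4a it was then 0.11, for Tuba1c 0.07, for Tuba1a and Tuba1b 0.04 each, and for Tubb2a -0.05. Within time points the correlation of Stmn1 was 0.34 over 54 untreated, 0.23 over 54 day 2 and 0.46 over 36 day 4 cells. For Tuba1a it was -0.23, 0.20 and 0.42 and for Tubb6 0.19, 0.37 and -0.23, so the sign changed between time points. Within plates, over 48 cells each, for Stmn1 it was 0.44, 0.19 and 0.42. Mki67 was at 1 FPKM or more in only 1 of 54 untreated, 5 of 54 day 2 and 7 of 36 day 4 cells. That untreated cell was at 10.9 FPKM of Mki67 and 0.369 FPKM of Stmn1. With counts this sparse for Mki67, the weaker values and all values within untreated cells are no finding.

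Set against the mean level of 26 measured proliferation genes, such as Mcm3 and Birc5, the correlation was higher for 7 of the 9 members but not for Tubb2a and Tuba4a, and the median of all measured genes was higher too. The Spearman correlation over all cells was 0.57 for Stmn1, 0.40 for Tubb5, 0.38 for Tuba1c, 0.34 for Tuba1b, 0.34 for Tubb4b, 0.17 for Tuba1a, 0.16 for Tuba4a, 0.16 for Tubb6 and -0.02 for Tubb2a, beside a median of 0.13 over all measured genes. Stmn1 stood above 99.8% of genes, Tubb5 above 97.9%, and Tubb2a above 8.37%. This score had a Spearman correlation of 0.41 with the number of detected genes.

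The members did not all move together from cell to cell. The Spearman correlation over all cells, centred in the same way, was 0.87 between Tuba1b and Tuba1c, 0.71 between Tuba1a and Tuba1c and 0.62 between Tuba1a and Tuba1b, genes whose reads are partly shared. Among members that share few or no words with each other it was 0.40 for Tubb5 and Stmn1, 0.39 for Tubb4b and Tubb6 and 0.38 for Tubb4b and Stmn1. Between alpha and beta members it lay at 0.24 for Tuba1b and Tubb5, 0.17 for Tuba1c and Tubb5 and 0.01 for Tuba1b and Tubb2a. The limit of the subtraction given for Mki67 holds for these values too, and for those with the proliferation genes. At day 4 mean log2(FPKM + 1) of Tubb6 was 5.79 in plate 2 and 0.40 in plate 1, and that of Tubb4b 4.31 and 1.21. Cells low in both genes thus fell to low ranks in plate 2, and the part of this in their correlation was not tested.

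The genes most like each member across cells were named by the highest Spearman correlation. For Stmn1 they were Birc5, a mitotic and survival gene, at 0.55, Cks1b, a cyclin-dependent kinase subunit, at 0.52, Tacc3, a spindle protein gene, at 0.51, Tk1, thymidine kinase, at 0.49 and Pclaf, a partner of the replication clamp, at 0.48. For Tubb5 they were Cep85 at 0.43, Snrpd2 at 0.41, Ifi30 at 0.40, Stmn1 at 0.40 and Gpx4 at 0.39. Values above 0 that were not whole reads made up 98.6% for Cep85, 75.4% for Gpx4, 48.4% for Snrpd2 and 39.4% for Ifi30. The place of Cep85 is therefore less certain. For Tubb2a they were Tubb2b at 0.88, whose sequence it shares, then Irf5 at 0.43, Prelid3b at 0.42, Sting1 at 0.39 and Gde1 at 0.39.

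For Tubb6 they were Trp53 at 0.47, Soat1 at 0.43, Fnbp4 at 0.42, Borcs7 at 0.42 and Tiparp at 0.41. For Tuba1c they were Tuba1b and Tuba1a, then Ptma at 0.39, with 96.5% of its values above 0 not whole reads, Atp5j at 0.38 and Tmed9 at 0.37. For Tuba1a they were Tuba1c and Tuba1b, then Nfkbia, the NF-kB inhibitor gene, at 0.39, Pfkfb3, a glycolytic regulator, at 0.37 and Olfml3 at 0.37. The median correlation of all genes with Tubb5, Stmn1, Tuba1c, Tubb6, Tubb2a and Tuba1a lay at 0.09, 0.08, 0.08, 0.08, 0.09 and 0.06. All of these are over the same cells, centred in the same way, and the limit of the subtraction holds for them too.

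The other genes of the microtubule system were counted by list at day 4. Of the other tubulins Tubg1, the gamma-tubulin of nucleation sites, and Tubb2b were the 2 measured of 12, and both were called higher, by 1.45 and 1.33. Tubb2b shares reads with Tubb2a and its level cannot be told apart from it fully. Of 12 tubulin folding and assembly genes 4 were called higher and 0 lower, with a median difference of 0.93, led by the tubulin cofactor genes Tbcb at 2.04 and Tbca at 1.72 and the prefoldin gene Pfdn6 at 1.6. Of 14 measured plus-end and microtubule-associated genes 3 were called higher, Mapre1, which encodes the end-binding protein EB1, at 1.39, the dynactin gene Dctn2 at 1.18 and Map7d1 at 1.13, with a median of 0.52. These counts stand beside the 18.9% of all measured genes called higher.

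Of 7 measured nucleation genes 1 was called higher, the gamma-tubulin complex gene Tubgcp2 at 1.10, with a median of 0.54. Of 9 measured mitotic spindle genes 2 were, Tacc3 at 1.69 and the spindle-associated gene Nusap1 at 1.10, with a median of 0.51. Of 4 measured tubulin modifier genes 0 were, with a median of 0.75. Of 26 measured proliferation genes 16 were, led by the replication helicase genes Mcm3 at 2.51, Mcm6 at 2.33 and Mcm2 at 2.22, with a median of 1.32. No gene of these lists was called lower. These counts too stand beside 18.9% of all measured genes called higher, and the medians beside 0.45 for all measured genes. The nucleation, spindle and microtubule-associated lists lay near both values.

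At day 2, when 3.89% of all measured genes were called higher, 0 of the measured genes of the folding, nucleation, spindle, modifier and microtubule-associated lists were. Of the 26 proliferation genes 2 were called higher at day 2, the centromere histone gene Cenpa at 1.36 and Hmgb2 at 1.17. The median of the proliferation list was 0.51 at day 2, that of the spindle list 0.58 and that of the folding list 0.27, beside 0.21 for all measured genes.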

How the data were processed

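Single sorted cells, 1 per well, were profiled by RNA sequencing after amplification of cDNA and tagmentation with the Nextera XT kit, per the labels' protocols. The tools listed in the submitters' processing notes are STAR 2.7.2b, featureCounts 1.6.1, cutadapt 1.16, Trimmomatic 0.36 and Trim Galore 0.4.4, with builds GRCm38.p6 and mm10. How they treated strand and reads that match several genes is not given in the sources used here. Expression was deposited by the authors as FPKM, in 1 table of 55364 genes. The product of FPKM and gene length added up to 1e+09 per cell, so values are relative to a cell's gene-assigned reads. Overlapping and antisense genes, such as Stk16 at Tuba4a, could not be told apart.

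The reads behind a value were estimated from the most frequent value above 0 of FPKM times length in each cell, taken as 1 read. A median of 59.4% of values above 0 were whole reads within 0.01 read, so no count model was fitted. No cell was removed, no doublet caller was run, and no 2 cells held the same values (0 pairs). Differences of mean log2(FPKM + 1) were computed on the whole table, pooled and within plates, without a test. Members, pathway lists and markers were chosen with earlier results of these data known. All 9 members and Mki67 were named, up to 3 called genes of each list by largest difference at day 4 (at day 2, at most 3 by difference there, named after their values were seen), other tubulins where measured, and the 5 genes of highest Spearman correlation for 6 members, leaving out ribosomal protein genes and unnamed gene models. The proliferation list held 33 genes, of which 31 were in the table and 26 measured. Correlations and differences were tested on simulated data. Alternatives were the pseudocount, the filter, the scale, detected genes as covariate, depth, plate, and, added after seeing the data, families with rows of shared sequence leaving out Mki67-high cells, and leaving out the highest cell of a gene for isotype shares. Some sequences of members are not reported here. Coding sequences came from GENCODE M21 transcripts and promoters from RefSeq, and 50-base words were compared between transcripts. Python 3.11.15, numpy 2.4.6, pandas 2.3.3, scipy 1.17.1, Biopython 1.88 and matplotlib 3.10.9 were used.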

Additional observations from a re-analysis of the deposited data

How the results depend on the processing

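No called difference of a member changed sign under any alternative. Of 357 recomputed differences of single members and families, 319 stayed within 1 SD over plates of the reported value and 38 did not. For 72 correlations the numbers were 55 and 17, and 132 of 162 shares of cells stayed within their 95% intervals and 30 did not. The median difference of the 9 members at day 4 from untreated cells, 1.63, was 2.19 with a pseudocount of 0.1, 1.08 with a pseudocount of 10 and 0.79 with detected genes as covariate, and 1.57 to 2.15 without 1 plate. At day 2 the median of 0.95 was 0.60 with a pseudocount of 10, 0.43 with detected genes as covariate and 0.64 to 1.46 without 1 plate. From day 2 to day 4 the median of 0.69 was 0.47 with a pseudocount of 10, 0.18 on the log2 scale of the mean FPKM, 0.44 relative to the median of all genes, 0.23 with detected genes as covariate, 0.53 to 0.61 without 1 plate and 0.36 without Mki67-high cells. The number called higher from day 2 to day 4, 1, was 0 on the scale of the mean FPKM, 0 with detected genes as covariate, and 0 to 2 without 1 plate. From untreated cells the number called at day 4, 6, was 4 on the scale of the mean FPKM and with detected genes as covariate and 5 to 8 without 1 plate, 8 without plate 1, where Tubb4b and Tubb6 were added. At day 2 the number, 4, was 6 without plate 1, where Tubb2a and Tubb4b were added, and 3 with a pseudocount of 10. Without 1 plate the sign had to agree only in the remaining plates. The share called and the median of all measured genes under these alternatives are not given here. These counts and medians of the members therefore have no background beside them. The change of isotype share at day 4 as a mean per cell was -11.6 percentage points for Tuba1a, 7.58 for Tuba1b and -10.2 for Tubb2a, and for Tubb2a it was -14.9 without the untreated cell highest in it. The median Spearman correlation of the members with Mki67, 0.13, was 0.20 as Pearson's r, 0.34 with the proliferation genes and 0.096 to 0.16 without 1 plate. With a threshold of 1 FPKM the share of cells was 79.6%, 92.6% and 91.7% for Tubb5 and 75.9%, 77.8% and 80.6% for Stmn1 in the 3 groups. The cause of these changes was not tested. No paired analysis was possible because cell numbers tie no cell of 1 time point to a cell of another, and the plate is the only shared unit. With the plate as a block (the mean of the 3 plates) the median at day 4 was 1.63 and the calls were the same in number, 6, 4 and 1. The families with shared sequence and the comparisons without Mki67-high cells or the highest cell of a gene were chosen after seeing the data.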
